A study of Mus musculus with 6 samples.

Results

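The regions described here are autosomal chromatin regions, open in fibroblasts, that had low accessibility when reprogramming cells were first sampled, at day 8. They were chosen by measured values: a region had to reach at least 100 normalised counts in mouse embryonic fibroblasts (MEFs) at day 0 and to stay below 25 at days 8, 9 and 10 and in induced pluripotent stem cells (iPSCs). A normalised count is the number of sequencing reads in a region divided by the size factor of its library. Of 223596 regions in the table, 218231 were autosomal, and 3559 of these met all 5 conditions. They are called early-closed regions below. Day 12 was not part of the rule, so its values are the measurement on which the description mainly rests.

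Accessibility was measured by ATAC-seq, in which a transposase cuts and tags open DNA, in 6 libraries with 1 library for each time point. The MEFs came from female embryos of hybrid crosses between Mus mothers, which carried a GFP reporter on the X chromosome, and Cast fathers. They had been transduced with the lentiviruses tetO-FUW-OSKM, which expresses Oct4, Sox2, Klf4 and c-Myc under doxycycline, and FUW-M2rtTA, which supplies the activator, and were then sorted for cells in which the X chromosome with GFP was the inactive one (Xi-GFP). Intermediates of days 8, 9, 10 and 12 grew with doxycycline, ascorbic acid and LIF and were sorted as SSEA1+, called FUT4+ in the labels. SSEA1 is a carbohydrate surface marker gained by cells that advance in reprogramming, and the intermediates are therefore a selected fraction of each culture. The iPSC library came from colonies that were picked and expanded after doxycycline and ascorbic acid had been withdrawn, and the titles of all 6 libraries call the cells GFP-negative. Nothing in the labels says how many embryos or colonies went into a library.

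As background, the identity of a fibroblast is held by enhancers on which somatic transcription factors of the AP-1, TEAD and RUNX families act. In reprogramming, the introduced factors are known to draw somatic factors away from these enhancers, which lose their active histone marks and close, while epithelial and later pluripotency enhancers open. Loss of somatic accessibility is regarded as an early event of reprogramming and the opening of pluripotency enhancers as a more gradual one. The table holds a row number, a chromosome and the values of each region, without coordinates, width or gene, so that regions are named by row number, and neither the fibroblast label nor any nearby gene could be checked against markers.

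With 1 library per time point there was no replicate error, and no test between time points was made. A difference between libraries in time, in sorting or in preparation cannot be told apart. Likewise, a low value cannot be told apart between fewer cells in which a region is open and less accessibility in every cell. The libraries held 22067333 to 32844411 reads in regions. Because size factors ranged from 0.498 in MEF day 0 to 1.40 at day 9, the same cutoff stood for different read numbers. A region was open in MEF day 0 from 50 reads upwards. It was closed with at most 27, 35 and 31 reads on the first 3 sampled days and with at most 19 in iPSC. Intervals given below are 95% intervals. Those on read numbers, shares of reads and folds cover counting error only. Those on medians and on shares of regions treat the regions of 1 library as independent. None covers variation between cultures.

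The conditions of the rule were met by very different numbers of regions. In MEF day 0, 75356 autosomal regions were open, or 34.5% of all. Over all autosomal regions, 29.2%, 30.9% and 31.5% were below 25 normalised counts on days 8, 9 and 10 respectively, and 36.1% were in iPSC. Of the regions open in MEF day 0, 12658 (16.8%) were below 25 at day 8, and 8527 of them were also below 25 at day 9. Day 10 left 6757 regions and iPSC left the 3559 early-closed ones, 4.72% of the open regions and 28.1% of those already below 25 at day 8. Of the 6757 regions closed at days 8, 9 and 10, 3198 had at least 25 normalised counts in iPSC and are called reopened regions below.

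Many regions lay close to the cutoffs. The weakest early-closed regions had 50 reads in MEF day 0 (100.4 normalised counts, 70 regions), while 60 regions with 49 reads (98.4 normalised counts) met every other condition. At day 8, 85 early-closed regions had the highest value allowed, 24.4 normalised counts, and 89 regions failed with 25.3 at day 8 alone. In all, 5943 regions open in MEF day 0 failed in exactly 1 of the 4 closed libraries. That library was iPSC for 3198 of them, day 9 for 1077, day 10 for 1013 and day 8 for 655. Of the regions that failed only at day 8, 53.0% were below 30 normalised counts there, against 13.4% of those that failed only in iPSC. Near misses thus lay closer to the cutoff at day 8 than in iPSC. This is partly fixed by the rule, since a region failing only at day 8 had to be below 25 at days 9 and 10. The set also depended on the size factors. When all libraries were scaled to the same autosomal total, which raises the later libraries relative to MEF day 0, 837 regions met the conditions, all of them among the 3559.

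The early-closed regions had moderate accessibility in MEF day 0, with a median of 213 normalised counts, 5% of them below 104 and 5% above 984. The strongest reached 3080. For comparison, 14949 other regions that were open in MEF day 0 and below 25 in iPSC, but kept at least 25 in 1 or more of days 8, 9 and 10, had a MEF median of 303. These are called partly closed. The proportion of early-closed regions fell with the fibroblast level. It was 7.89% of the regions with 100 to 150 normalised counts in MEF day 0, 5.73% of those with 200 to 300, 3.57% of those with 500 to 1000 and 1.13% of those with 1000 or more. The closed cutoff was the same for all regions, so a stronger region had to fall further to be included. The decline with the fibroblast level is therefore partly fixed by the rule. Since the table gives no widths, a region with many reads may be wide, strongly open or both.

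On days 8, 9, 10 and 12 the median of the early-closed regions was 13.6, 17.1, 15.8 and 17.1 normalised counts respectively, and in iPSC it was 10.0. In reads, the median of 106 in MEF day 0 became 15, 24, 20 and 19 on the 4 sampled days and 8 in iPSC. The median fold of MEF day 0 over day 8 was 18.4, and 78.7% of the regions fell at least 10-fold. The smallest fall to day 8 was 4.19-fold. Closure did not mean an absence of reads. Only 13 of the 3559 regions (0.365%) were at the lowest recovered value of 1 read at day 8, which can stand for 0 or 1, and 193 (5.42%) were there in iPSC.

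**Figure D1:**
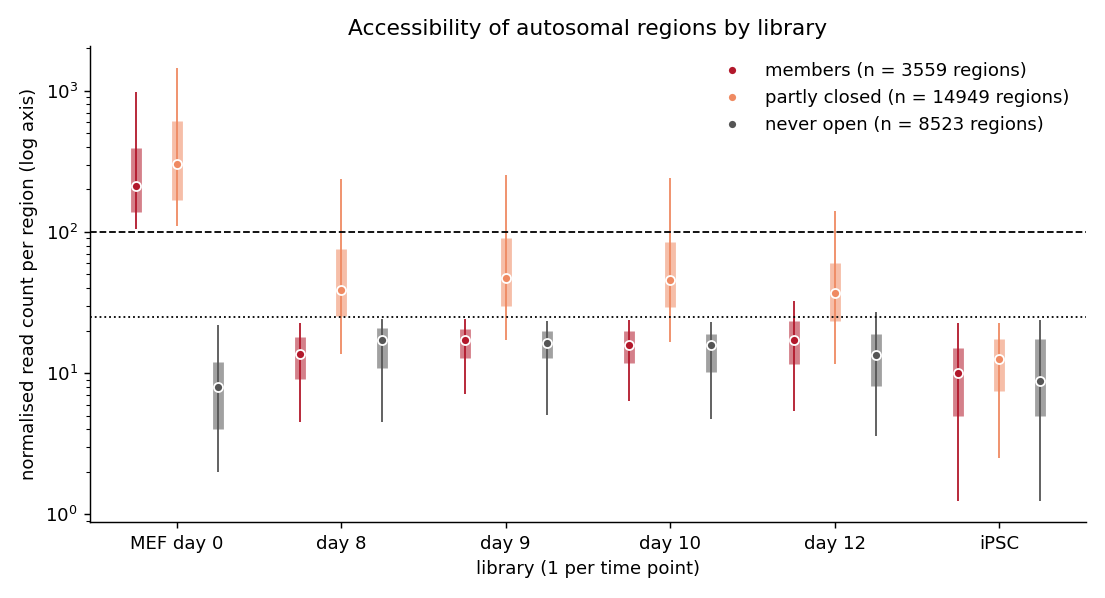
Normalised read counts per region (log axis) in each of the 6 libraries for early-closed (members), partly closed and never-open regions, with medians as points, the middle 50% of regions as thick bars, the 5th to 95th percentiles as thin lines, and 100 and 25 normalised counts as dashed and dotted lines. Early-closed medians lie between 10.0 and 17.1 after day 0, close to the never-open regions, whereas partly closed regions stay at 36.9 to 47.1 up to day 12.

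To ask what level a closed region has in these libraries, 8523 autosomal regions were used that were below 25 normalised counts in MEF day 0 and in the same 4 later libraries. These never-open regions had medians of 17.2, 16.4 and 15.8 on days 8, 9 and 10 respectively and of 8.77 in iPSC. The early-closed medians were thus lower at day 8 (13.6) and nearly the same at days 9 and 10. In iPSC the early-closed median of 10.0 lay within the interval over regions of the never-open median (8.77 to 10.0). All of these values were bounded by the rule. The low level of iPSC was shared, since iPSC was the lowest of the 5 later libraries in 51.2% of early-closed and in 46.7% of never-open regions. In MEF day 0 itself the never-open regions had a median of 8.03.

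The share of autosomal reads uses no size factor once the regions are chosen, and it gave smaller folds than summed normalised counts. By the latter, day 8 held 4.08% of the MEF day 0 sum, day 12 held 5.41% and iPSC 3.14%. The early-closed regions held 2.20% of the autosomal reads in MEF day 0 (Wilson interval 2.20% to 2.21%). By day 8 this had become 0.188% (0.187% to 0.190%). The next samples gave 0.258% (day 9), 0.233% (day 10), 0.297% (day 12, 0.295% to 0.299%) and 0.139% (iPSC). The fall from MEF day 0 was 11.7-fold to day 8, 7.42-fold to day 12 and 15.8-fold to iPSC. The lowest share among intermediates was therefore that of day 8, the first one sampled, and the highest that of day 12, the only one without an upper bound in the rule.

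Day 12 provided the values that the rule had not used. There, 2840 of the 3559 early-closed regions (79.8%, Wilson interval 78.4% to 81.1%) were below 25 normalised counts. Over all autosomal regions 29.2% were below 25 at day 12, and among the partly closed regions 28.4% were. No early-closed region reached 50 normalised counts at day 12, and the highest had 49.5. The middle 50% of them lay between 11.7 and 23.4. Day 10 and iPSC, sampled before and after day 12, were both bounded by the rule, which favours low values at day 12. Never-open regions, bounded in the same 4 libraries, were below 25 at day 12 in 92.3% of cases. Among early-closed regions this held for 79.8%, and the others lay between 25 and 50 normalised counts. This proportion depended on the scaling, and with equal autosomal totals it was 47.4% of the 837 regions then chosen, against 18.4% of all autosomal regions.

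**Figure D2:**
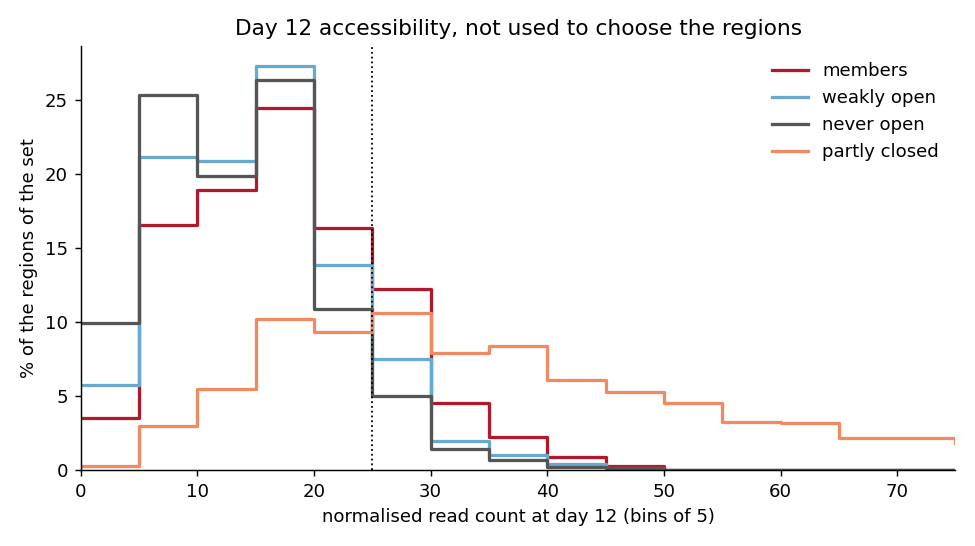
Distribution of normalised read counts at day 12, in bins of 5 counts (x axis), as the percentage of the regions of each set (y axis). Of the early-closed regions (members), 79.8% lie left of the dotted line at 25, against 88.9% of weakly open, 92.3% of never-open and 28.4% of partly closed regions.

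Compared with regions that were closed in the same 4 libraries, the early-closed regions were somewhat more accessible at day 12. Of them 20.2% reached 25 normalised counts, against 7.66% of the never-open regions, a difference of 12.5 percentage points (Newcombe interval 11.1 to 14.0). The medians were 17.1 and 13.5. An in-between set of 4545 regions, closed in the same libraries but weakly open in MEF day 0 (25 to below 100 normalised counts), lay between the others, with 11.1% at or above 25 and a median of 15.3. The intervals cover the number of regions in 1 library and not the variation between cultures, and never-open regions may have entered the table through day 12.

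The same order appeared in the course from one library to the next. From day 8 to day 12 the share of autosomal reads rose 1.58-fold in early-closed, 1.43-fold in weakly open and 1.06-fold in never-open regions. Day 8 was the lowest intermediate of the early-closed regions, and relative to day 9 the factors were 1.15, 1.12 and 0.948, relative to day 10 1.27, 1.20 and 1.05. The rule bounded days 8, 9 and 10 but not day 12, so an increase to day 12 is partly fixed by it. Day 12 was above both day 10 and iPSC in 1844 early-closed regions (51.8%), against 29.8% of never-open regions and 12.0% of all autosomal regions. The missing bound at day 12 also favours this course in both closed sets. The reopened regions were higher at day 12, with a median of 24.3 and 47.9% of them at or above 25. They were chosen for at least 25 in iPSC, where the early-closed regions were held below 25, and this choice favours higher values at day 12.

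To see whether day 12 was unusual, each later library was left out of the cutoffs in turn, a comparison chosen after the values had been seen. Regions at least 100 in MEF day 0 and below 25 in the other 4 later libraries were taken each time. When day 8 was left out, 16.0% of them reached 25 there. The values for days 9, 10 and 12 were 21.5%, 16.4% and 20.2%, and that for iPSC was 37.0%, with 11.2% even at 50 or more. The proportion at day 12 was thus close to that at day 9. In never-open regions the corresponding values were 35.0%, 16.6%, 9.56%, 7.66% and 47.1%. The values of former fibroblast regions were thus lower than those of never-open regions at day 8 and in iPSC and higher at days 9, 10 and 12. The table joins regions found over the libraries, so a never-open region may have entered it through the left-out library itself, whereas the others could enter through MEF day 0. The never-open values are therefore a description, and the lower values of fibroblast regions at day 8 and in iPSC are not read as a difference. For iPSC the order depended on the scaling, since equal autosomal totals gave 48.3% for former fibroblast and 42.0% for never-open regions, whereas at days 8, 9, 10 and 12 it was the same in that setting.

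**Figure D3:**
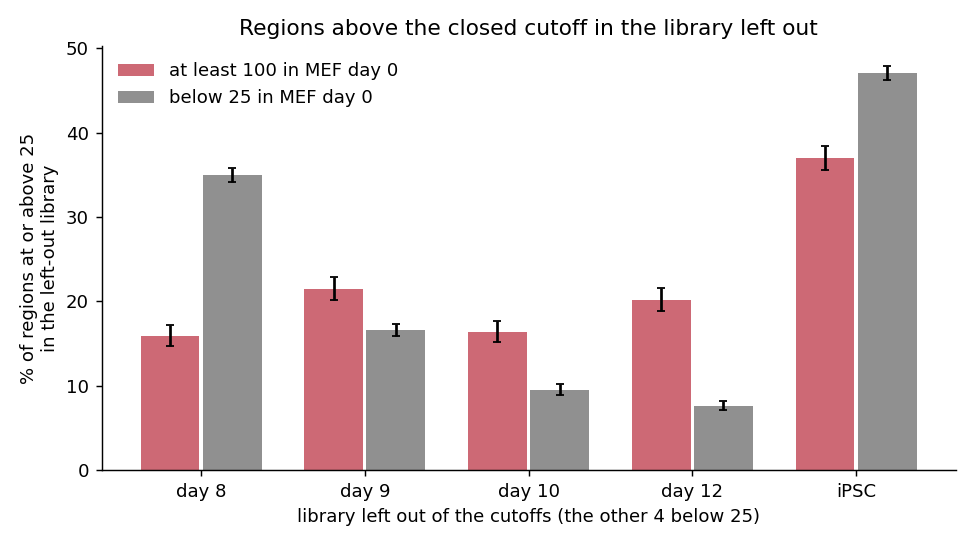
Percentage of regions at or above 25 normalised counts (y axis) in the library that the cutoffs left out (x axis), for regions below 25 in the other 4 later libraries, with red bars for at least 100 normalised counts in MEF day 0, grey bars for below 25 there and 95% Wilson intervals. Red exceeds grey at days 9, 10 and 12, and grey exceeds red at day 8 and in iPSC, where equal autosomal totals turned the order for iPSC.

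Within the early-closed set, the day 12 level increased with the fibroblast level. The 1082 regions with 100 to 150 normalised counts in MEF day 0 had a day 12 median of 16.2, and 15.4% of them were at or above 25 (Wilson interval 13.4% to 17.7%). Regions with 300 to 500 had a median of 18.0, with 24.7% at or above 25 (21.3% to 28.5%). The 176 regions with 1000 or more had a median of 22.5, with 36.9% at or above 25 (30.2% to 44.3%). The lower 3 classes overlapped in their intervals, whereas the upper 3 were above them. Over the 3559 regions Spearman's rho between MEF day 0 and day 12 was 0.202, a weak relation that shares region width and is given without a p-value.

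The increase was smaller in the libraries bounded by the rule. Between the lowest and the highest class the day 8 median went from 12.7 to 16.3, that of day 9 from 16.4 to 18.9, that of day 10 from 15.0 to 17.4 and that of iPSC from 8.77 to 10.0. When day 12 was bounded in the same way, by taking only early-closed regions below 25 there, its median went from 14.4 to 18.0. Even in the highest class the day 12 median of 22.5 was far below the MEF median of 1305. Whether the day 12 signal was left over from the fibroblast state was not tested.

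**Figure D4:**
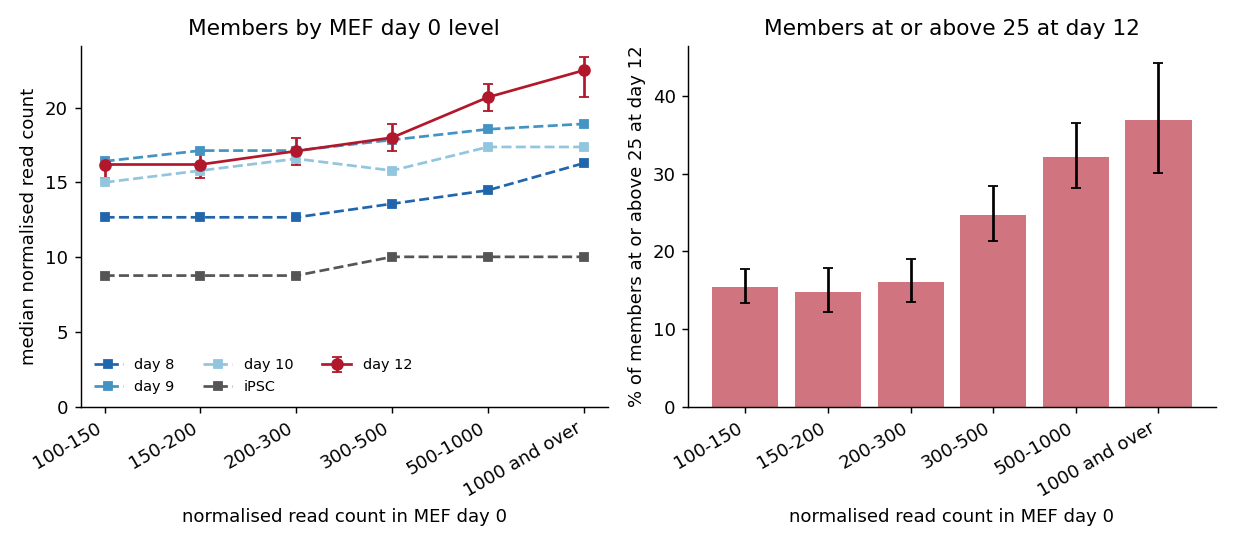
Early-closed regions (members) in 6 classes of MEF day 0 level (x axes). The left panel gives median normalised read counts in the 5 later libraries, with 95% order-statistic intervals for day 12, and the right panel the percentage of regions at or above 25 normalised counts at day 12 with 95% Wilson intervals, which rises from 15.4% in the lowest to 36.9% in the highest class.

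The 5 early-closed regions with the highest MEF level show how far single regions fell. The region in row 11859, on chromosome 1, had 3080 normalised counts in MEF day 0, then 19.9, 24.99, 11.8 and 14.4 on days 8, 9, 10 and 12, and 8.77 in iPSC. Its 1534 reads in MEF day 0 stood against 22 at day 8, a 155-fold fall (95% exact interval 102 to 248), and it remained low at day 12. The region in row 53307, on chromosome 13, had 2337, 9.05, 15.0, 6.32, 30.6 and 18.8 normalised counts in the same order. It fell 258-fold to day 8 (140 to 540) and was only 76.4-fold below MEF day 0 at day 12 (54.3 to 111). Row 144691, on chromosome 4, had 2307 in MEF day 0, then 18.1, 16.4, 18.2, 27.9 and 23.8. Rows 53307 and 144691 were thus above 25 at day 12, while the other 3 of these regions were not. Row 10437, on chromosome 1, had 2239, 13.6, 21.4, 7.11, 18.9 and 7.52 normalised counts. Row 68558, on chromosome 14, had 2237, 10.9, 23.6, 11.8, 21.6 and 17.5.

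The 5 early-closed regions with the highest day 12 level were weaker in MEF day 0 than the 5 just described. Their MEF levels of 131 to 546 lay on both sides of the median of all early-closed regions, 213. The region in row 120150, on chromosome 2, had 203 normalised counts in MEF day 0, then 15.4, 24.99, 22.9 and 49.5 on days 8, 9, 10 and 12, and 12.5 in iPSC. Its 55 reads at day 12 exceeded the 29 of day 10 and the 10 of iPSC, and its fall from MEF day 0 to day 12 was 4.10-fold (95% exact interval 2.92 to 5.80). Row 78715, on chromosome 15, had 207, 12.7, 9.28, 20.5, 48.6 and 22.6 in the same order. Row 147614, on chromosome 4, had 131, 22.6, 21.4, 12.6, 48.6 and 15.0, and its fall to day 12 was 2.69-fold (1.84 to 3.93). Their day 12 values stood above those of the other later libraries, which follows from the choice, since the rule kept those libraries below 25. In iPSC, row 78715 was close to that limit. Row 39339, on chromosome 11, had 546, 22.6, 19.3, 22.9, 47.7 and 13.8 normalised counts. Row 82023, on chromosome 16, had 265, 22.6, 23.6, 22.9, 47.7 and 16.3. As the highest of 3559 values in 1 library they are extremes by choice, and there was no second day 12 library in which to look at them again.

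Across all early-closed regions the depth limits how firmly a single one can be called closed. The exact 95% upper limit of the read number was below 25 normalised counts for 64.8%, 46.1% and 51.4% of them on days 8, 9 and 10, and for 72.5% in iPSC. In all 4 libraries at once this held for 435 regions (12.2%). With the reads of the 4 libraries pooled it held for 3464 (97.3%), although the rule itself kept each of these libraries below 25. In the other direction, the lower limit at day 12 was above 25 for 108 early-closed regions (3.03%), for 0.962% of never-open and for 51.8% of partly closed regions. In MEF day 0 the lower limit reached the open cutoff of 100 for 2827 of the 3559 (79.4%), so that the others were not firmly above it.

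Early-closed regions were found on all 19 autosomes, with 91 to 298 on each. They made up between 3.33% of the open regions, on chromosome 11, and 6.08%, on chromosome 16, with a median of 4.69% over autosomes. The Wilson interval was 2.89% to 3.83% for chromosome 11 and 5.23% to 7.06% for chromosome 16. These 2 chromosomes are the extremes of 19, picked after the values were seen, so their intervals are not read as a difference. The intervals also treat regions as independent, whereas early-closed regions lay near each other in the table. Chromosomes 3 (6.00%), 13 (5.89%) and 1 (5.78%) were also high, and chromosomes 7 (3.58%), 4 (3.92%) and 19 (3.93%) low. The proportion below 25 at day 12 was between 70.5% and 85.2% on each autosome. The rule left out the X chromosome, which is partly inactive in MEFs. With the same cutoffs, 56 of 1450 open X-linked regions (3.86%, 2.99% to 4.98%) would have been included, within the range of the autosomes. Of these 56, 49 (87.5%) were below 25 at day 12, against 30.9% of all X-linked and 13.5% of open X-linked regions.

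Early-closed regions also lay near each other in the table, in which rows are grouped by chromosome. The sources do not state the order of rows within a chromosome. Of the rows directly after an early-closed region, 172 of 3559 (4.83%) were early-closed, against 1.63% of all autosomal rows. Among the same following rows, 40.4% were open in MEF day 0, against 34.5% of all autosomal rows. Among following rows that were open in MEF day 0, 12.0% were early-closed after an early-closed region and 4.03% after any other open region. At 10 rows ahead the values were 7.99% and 4.34%, and at 500 rows ahead 5.95% and 4.64%. Open non-member rows directly beside an early-closed region were themselves lower, with a median of 47.1 normalised counts at day 8 and 54.0 at day 12, against 92.3 and 99.0 for the other open non-members. At day 12, 18.4% of them were below 25, against 9.53%.

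**Figure D5:**
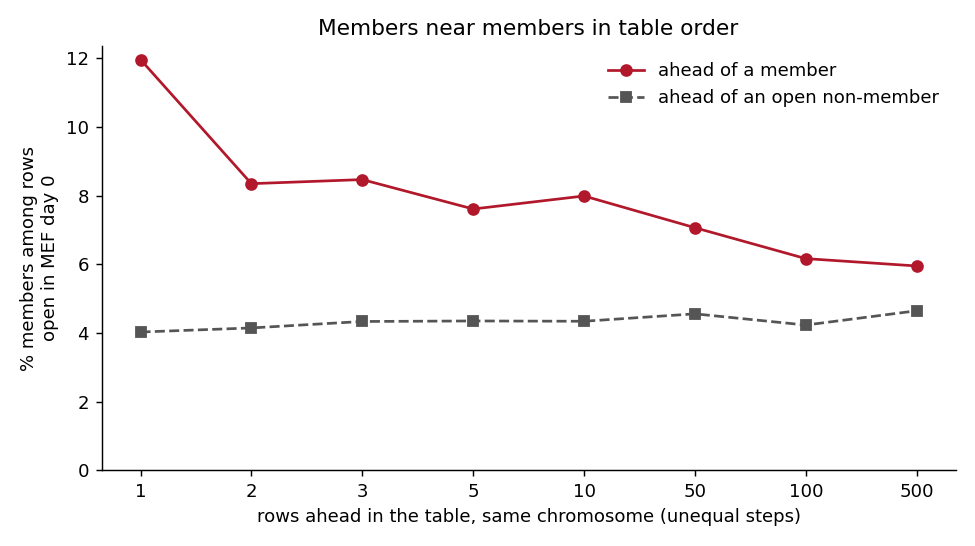
Percentage of early-closed regions (members) among rows open in MEF day 0 (y axis) at 1 to 500 rows ahead in the table (x axis, unequal steps), from an early-closed region (red) or from another region open in MEF day 0 (grey). The red line falls from 12.0% to 5.95% and the grey line stays between 4.03% and 4.64%.

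Most early-closed regions were nonetheless single. Of the 3559, 3224 (90.6%) had no early-closed region in the row before or after, 308 formed 154 pairs and 27 formed 9 runs of 3, the longest runs found. The run with the highest summed MEF level among these, picked after the values were seen, was in rows 143758 to 143760 on chromosome 4. Its regions had 464, 817 and 1584 normalised counts in MEF day 0, from 231, 407 and 789 reads, against 21, 7 and 8 reads at day 8. Their normalised counts were 27.9, 20.7 and 23.4 at day 12 and 3.76, 3.76 and 12.5 in iPSC. All 3 were closed at day 8, and the first was slightly above the cutoff at day 12. In another run, rows 11962 to 11964 on chromosome 1, all 3 regions were above 25 at day 12, with 34.2, 34.2 and 38.7 normalised counts after 398, 1369 and 373 in MEF day 0.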

How the data were processed

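ATAC-seq reads of 6 libraries, 1 per time point, were processed by the authors with the ENCODE pipeline on GRCm38/mm10, joined with DiffBind 3.8 into read counts over common regions, divided by DESeq2 1.21.22 size factors and deposited as log2 values with a pseudocount of 1. Groups were taken from the time point labels, and all 6 columns were used. Normalised counts were 2 to the power of the value minus 1. All values (100%) lay within 0.001 of whole multiples of the lowest value of their library, which gave reads and size factors. Size factors assume that the typical region does not change. MEF day 0, with few reads in most regions, received the smallest one, which raises its values relative to the others. Both ends of a fragment may be counted, so intervals on reads can be too narrow.

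Regions were chosen by fixed cutoffs of 100 and 25 normalised counts. The members, comparison sets and cutoffs were chosen with earlier results of these data known. Named regions were the 5 members highest in MEF day 0, the 5 highest at day 12, the longest runs and the values nearest the cutoffs. Shares were given Wilson intervals, folds exact Clopper-Pearson intervals, read numbers exact Poisson limits, differences of shares Newcombe intervals and medians order-statistic intervals, all at 95%. No test across libraries was made. The rule was also run on simulated data with regions planted well away from both cutoffs, which cannot test regions near them. Alternatives were other cutoffs, equal autosomal totals, quantile normalisation, thinned reads, a pseudocount of 10 and filters. Python 3.11.15, numpy 2.4.6, pandas 2.3.3, scipy 1.17.1 and matplotlib 3.10.9 were used.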

Additional observations from a re-analysis of the deposited data

How the results depend on the processing

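The number of early-closed regions depended on every cutoff. It was 6110 with an open cutoff of 50 normalised counts, 1890 with 200, 260 with a closed cutoff of 15, 14887 with a closed cutoff of 50 and 837 with equal autosomal totals. As a percentage of the open autosomal regions these were, in the same order, 6.04%, 3.59%, 0.345%, 19.8% and 1.51%, with 5.01% under quantile normalisation and 4.53% with reads thinned to the shallowest library. On the X chromosome the first 5 settings gave 5.69%, 2.96%, 0.552%, 15.7% and 1.76%. In that order, followed by quantile normalisation, 83.8%, 75.4%, 15.8%, 96.4%, 47.4% and 86.6% of the regions were below the closed cutoff in use at day 12. Over all autosomal regions the corresponding shares were 29.2%, 29.2%, 12.4%, 56.2%, 18.4% and 34.5%. With the closed cutoff of 15 the early-closed share was thus close to that of all autosomal regions. The day 12 median of the early-closed regions was 16.2, 18.9, 19.8, 23.4, 25.5 and 14.5 normalised counts on the scale in use. The share at or above that cutoff exceeded the share in never-open regions by 8.52, 16.9, 14.4, 2.16, 26.9 and 9.89 percentage points. The difference of the medians was 2.70 with the open cutoff of 50, 5.40 with 200 and with the closed cutoff of 50, 6.07 with equal totals and 4.87 under quantile normalisation. The comparisons with never-open regions and of left-out libraries were added after the data were seen. With a pseudocount of 10 the median log2 change from MEF day 0 to day 12 was -3.13, against -3.77. Of autosomal regions with at least 50 normalised counts in 1 or more libraries, 16.8% were below 25 at day 12. Counting only next rows open in MEF day 0, 12.0% of those after an early-closed region were early-closed. In all, 43 values moved and 9 did not. Counts, percentages and medians cannot change sign, whereas the differences from never-open regions could, and none of these differences did. In the comparison of left-out libraries, former fibroblast regions exceeded never-open ones in iPSC with equal totals (48.3% against 42.0%) and with a closed cutoff of 15 (89.7% against 86.0%), while days 8, 9, 10 and 12 kept their order in all 7 settings. Of the 3559 regions, 2445 (68.7%) were also chosen under quantile normalisation and 3007 (84.5%) after thinning. Equal totals raised the later libraries by 1.01 to 1.32 on the log2 scale relative to MEF day 0. Which scaling is right could not be settled without replicates or a spike-in. With 1 library per time point, no library could be left out as a replicate.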
